A study of Mus musculus with 8 samples.

Results

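The plasminogen activators and the serpins that act on or beside them were followed in 8 bulk RNA sequencing libraries of 2 mouse breast cancer lines. Members were the 7 listed genes Plat, Plau, Plaur, Serpine2, Serpinb2, Serpinb5 and Serpinf1, found by gene name among 22026 genes in the deposited files, with the reads of all transcripts of a gene summed. All 7 were found. Both lines, TS/A and 4T1, are mammary carcinoma lines of BALB/c mice. By the sample characteristics each line carried either a virus vector that expresses Adgrg1 (Gpr56), a collagen III receptor of the adhesion class of G protein-coupled receptors, or an empty vector. The 4 groups were thus TS/A with the Gpr56 vector, TS/A with the empty vector, 4T1 with the Gpr56 vector and 4T1 with the empty vector, with 2 libraries each. The series describes culture of the transduced cells with type III collagen for 72 h before RNA was taken, in RPMI medium with 10% FCS. The sample titles split the same libraries into Emp_Control and Emp_ColIII, so by the labels the vector and the collagen culture of each group cannot be told apart. The promoter of the vector and the number of clones are not given in the labels. Nothing says that replicates were separate cultures, so every p-value measures the spread between these libraries, which may be technical.

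Plasminogen, the zymogen of the broad protease plasmin, is cleaved by the secreted serine proteases tPA (Plat) and uPA (Plau). uPA does so mostly at the cell surface, bound to its GPI-anchored receptor uPAR (Plaur). Serpins trap such proteases in an irreversible complex: PAI-2 (Serpinb2) and protease nexin-1 (Serpine2) inhibit uPA and tPA, whereas maspin (Serpinb5) and PEDF (Serpinf1) belong to the same fold family but are not inhibitory serpins of these enzymes. In breast cancer uPA is known as a marker of invasive disease, and maspin as a product of mammary epithelium that many carcinomas lose.

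In 4T1, Plau, Serpinb2 and Serpinb5 rose and Serpine2 fell with the Gpr56 vector, and in TS/A no member passed the test. Libraries held 10510569 to 25959142 reads, and 3 reads were worth 0.116 to 0.285 CPM (reads scaled to a common library size, with TMM factors). Adgrg1, the gene the vector carries, had 90.5 and 100.1 CPM in 4T1 with the Gpr56 vector, against 2.53 and 2.77 CPM in 4T1 with the empty vector. In TS/A it had 22.6 and 13.3 CPM in the libraries labelled Gpr56, against 34.8 and 16.3 CPM with the empty vector. The TS/A groups thus overlapped and showed no rise of Adgrg1 with the Gpr56 label. TS/A directions below are given by label alone. Replicates lay close in 4T1 and apart in TS/A: the biological coefficient of variation was 19.6% in TS/A and 5.47% in 4T1. Each line was therefore tested alone for the vector, with edgeR's quasi-likelihood test and Benjamini-Hochberg adjustment over all genes, called at an adjusted p under 0.05.

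Of the cell type markers, epithelial ones (8 genes) summed to 203 and 260 CPM in TS/A Gpr56 libraries, 180 and 212 in TS/A empty, 3239 and 3156 in 4T1 Gpr56, and 2261 and 2250 in 4T1 empty libraries. In TS/A that sum was Krt18 and Krt19, and the other 6, among them Epcam and Cdh1, each lay under 1 CPM, with Cldn3 at 0 reads, so the defining epithelial markers were absent or nearly so in a line labelled breast cancer. In 4T1, 7 of the 8 epithelial markers rose with the vector and 1 fell, beside 11.5% and 11.3% of all genes tested. With all 8 libraries in 1 fit, Cldn4 alone of these markers was called (adjusted p = 0.030 by edgeR). Fibroblast markers (8 genes) summed to 216 and 160 CPM in TS/A Gpr56, 336 and 149 in TS/A empty, 8.57 and 9.38 in 4T1 Gpr56, and 15.5 and 15.4 in 4T1 empty libraries, with Lum and Thy1 at 0 reads throughout. In TS/A most of that sum was Col1a1, at 199 and 144 CPM in Gpr56 and 311 and 139 CPM in empty libraries, whereas Col1a2, Col3a1 and Dcn lay under 0.4 CPM in all 8 libraries. In 4T1 most of it was Pdgfra, at 7.96 and 8.25 CPM in Gpr56 and 13.3 and 13.3 CPM in empty libraries. Pdgfra was called lower there (log2 fold change -0.72, adjusted p = 0.0021 by edgeR, and 0.32 with all 8 libraries). In TS/A Pdgfra lay between 8.40 and 15.0 CPM. Immune markers (8 genes) summed to 3.01 and 2.45 CPM in TS/A Gpr56, 2.54 and 2.69 in TS/A empty, 15.3 and 19.3 in 4T1 Gpr56, and 7.54 and 7.38 in 4T1 empty libraries, with Cd3e and Adgre1 at 0 reads, and the 6 endothelial markers stayed under 1 CPM in sum. Most of the immune sum in 4T1 was Cd68, at 13.4 and 17.3 CPM in Gpr56 and 6.64 and 6.58 CPM in empty libraries. Cd68 was called higher in 4T1 (log2 fold change 1.19, adjusted p = 1.07e-04 by edgeR, and 0.083 with all 8 libraries). The marker sums moved with both the line and, in 4T1, the vector, and their part in the results below was not tested. In bulk RNA, fewer cells of a type and less RNA per cell cannot be told apart.

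Levels can be compared between genes only per transcript length, as the deposited RPKM (reads per transcript length and library size). The RPKM of a gene is summed over its transcripts, so it also depends on how reads were assigned among them. Serpine2 in the 4T1 empty libraries had 7.72 and 5.88 RPKM at 14.1 and 14.0 CPM. In 4T1 with the Gpr56 vector, Plaur led at 109 ± 5.78 RPKM, followed by Plau at 83.4 ± 2.60, Serpinb2 at 50.9 ± 8.10, Serpinb5 at 10.3 ± 1.08, Plat at 5.16 ± 0.805, Serpine2 at 1.89 ± 0.0404 and Serpinf1 at 0.335 ± 0.177 RPKM (SD, n = 2). In 4T1 with the empty vector, Plaur averaged 94.7 ± 0.911, Plau 54.7 ± 0.463, Serpinb2 20.98 ± 0.0819, Serpine2 6.80 ± 1.30, Plat 3.98 ± 0.285, Serpinb5 3.42 ± 0.794 and Serpinf1 0.552 ± 0.175 RPKM (SD, n = 2). Plat lay above Serpinb5 in both replicates with the empty vector, but their ranges overlapped, whereas the other neighbours in each order did not overlap. Serpine2 stood above Plat and Serpinb5 with the empty vector and below both with the Gpr56 vector.

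TS/A had another order. With the Gpr56 label Plaur averaged 126 ± 17.9, Plau 46.9 ± 7.95, Serpinf1 35.7 ± 8.49, Plat 21.03 ± 1.60 and Serpinb2 4.67 ± 0.229 RPKM, and Serpine2 and Serpinb5 were at 0 (SD, n = 2). With the empty vector Plaur averaged 115 ± 9.87, Plau 34.2 ± 4.18, Serpinf1 26.7 ± 6.74, Plat 22.1 ± 0.387 and Serpinb2 4.96 ± 2.26 RPKM (SD, n = 2). Plau and Serpinf1 changed places between replicates in both groups, as did Serpinf1 and Plat with the empty vector. The receptor Plaur thus led in every group, ahead of the protease it binds.

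**Figure D1:**
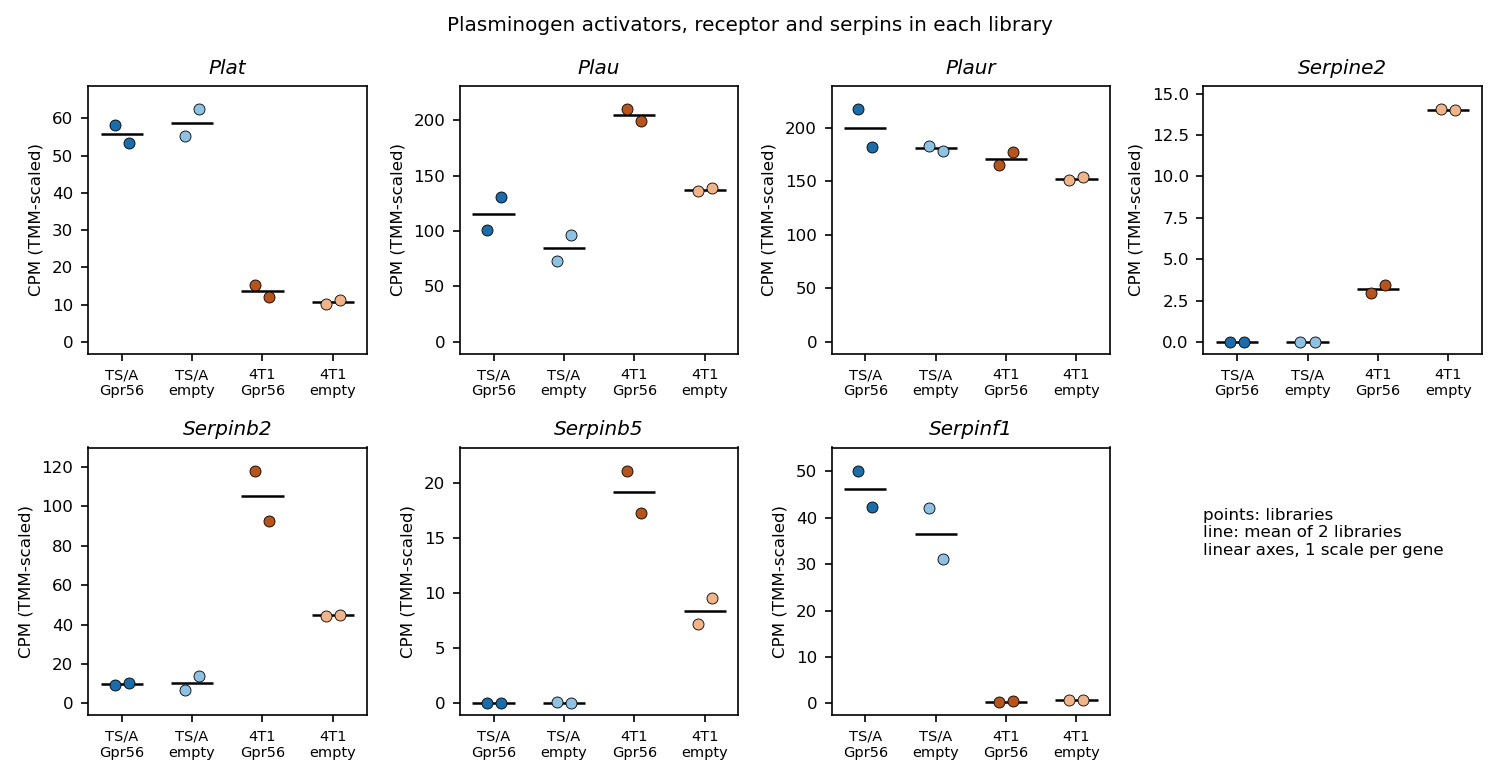
TMM-scaled CPM (vertical axis, linear, a scale per gene) of each of the 7 genes in each library, grouped on the horizontal axis as TS/A Gpr56, TS/A empty, 4T1 Gpr56 and 4T1 empty, with a line at the mean of 2 libraries. Plat and Serpinf1 lie higher in TS/A, Serpine2, Serpinb2 and Serpinb5 lie higher in 4T1, and Plaur is near one level in all groups.

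Of the 7 members, all tested in 4T1, 3 rose and 1 fell with the Gpr56 vector, beside 22.8% of all 11361 genes called, of which 1308 (11.5%) rose and 1280 (11.3%) fell. Scaling by library totals moved that split to 1624 higher and 1042 lower. The members' median log2 fold change was 0.36, against 0.00 over all genes tested. Members and the other gene lists were picked with earlier results of these data known, so medians and counts set beside all genes are descriptions. Epithelial markers summed to 3239 and 3156 CPM in the same Gpr56 libraries, against 2261 and 2250 CPM in the empty ones. That sum rose as the 3 members did, while Serpine2 fell, and the part of these markers was not tested. In CPM the groups did not overlap for any of the 7, with 5 higher and 2 lower in Gpr56 libraries, where 61.7% of all genes tested also had groups apart. When 4T1 shared its estimate of spread with TS/A in a fit of all 8 libraries, 0.226% of genes were called (27 of 11970) and of the members Serpine2 alone kept its call, at an adjusted p of 0.048 by edgeR.

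Among the proteases, Plau, the urokinase gene, had 210 and 199 CPM in 4T1 with the Gpr56 vector, against 136 and 139 CPM with the empty vector. Both Gpr56 libraries lay well above both empty ones, with replicates close in each group. Plau rose 1.49-fold, a log2 fold change of 0.57 ± 0.06 (SE), at an adjusted p of 5.92e-06 by edgeR in 4T1 alone (0.233 in the fit of all 8 libraries). Nearly every read of it, 99.96% over all libraries, was assigned to Plau-201, the gene lying at chr14:20836660-20843385 on the plus strand (ENSMUSG00000021822, GRCm38).

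Plat, which encodes tPA, had 15.2 and 12.1 CPM in 4T1 with the Gpr56 vector and 10.2 and 11.4 CPM with the empty vector. The Gpr56 libraries were both higher, by a margin smaller than the gap between themselves. Its log2 fold change of 0.36 ± 0.15 (SE) did not pass, with an adjusted p of 0.095 by edgeR, and it passed in 1 of 16 settings, without 4T1 Gpr56 replicate 2 (adjusted p = 0.027). Plat lies at chr8:22757727-22782844 on the plus strand (ENSMUSG00000031538). Within a 4T1 library the RPKM of Plau was 14.9 and 17.8 times that of Plat with the Gpr56 vector, and 14.4 and 13.2 times with the empty vector, so urokinase was the main activator transcript of this line in both groups.

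Plaur, the urokinase receptor at chr7:24462484-24475968 (plus strand, ENSMUSG00000046223), had 165.4 and 177 CPM in 4T1 with the Gpr56 vector, against 151 and 154 CPM with the empty vector. The groups were apart by a small step. Its log2 fold change was 0.16 ± 0.06 (SE) with an adjusted p of 0.055 by edgeR, and it passed in 6 of 16 settings, with adjusted p-values from 0.013 to 0.688.

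Among the inhibitors, Serpinb2 (PAI-2), which is made largely as an intracellular protein in macrophages and keratinocytes, had 118 and 92.8 CPM in 4T1 with the Gpr56 vector, against 44.6 and 44.7 CPM with the empty vector. The empty libraries were almost equal, and the lower Gpr56 library was still far above them. Serpinb2 rose 2.36-fold, a log2 fold change of 1.25 ± 0.09 (SE), at an adjusted p of 2.65e-07 by edgeR (0.144 with all 8 libraries). Serpine2 went the other way: it had 2.95 and 3.47 CPM, from 63 and 37 reads, in 4T1 Gpr56 libraries, against 14.1 and 14.0 CPM, from 250 and 298 reads, with the empty vector. Protease nexin-1, its product, blocks thrombin as well as the plasminogen activators. Serpine2 was 4.37-fold lower with the Gpr56 vector, fell by 2.15 on the log2 scale with an SE of 0.18, and had an adjusted p of 8.32e-07 by edgeR, with a call in 16 of 16 settings. It lies at chr1:79794197-79861180 on the minus strand (ENSMUSG00000026249).

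Of the serpins that do not inhibit these enzymes, Serpinb5 (maspin) had 21.1 and 17.3 CPM in 4T1 with the Gpr56 vector, against 7.20 and 9.54 CPM with the empty vector. Both Gpr56 libraries exceeded both empty ones. Serpinb5 rose 2.29-fold, a log2 fold change of 1.201 ± 0.16 (SE), at an adjusted p of 7.43e-05 by edgeR (0.162 with all 8 libraries). Serpinf1, whose product PEDF is a secreted anti-angiogenic protein, had 0.281 and 0.469 CPM in 4T1 with the Gpr56 vector and 0.788 and 0.658 CPM with the empty vector, from 5 to 14 reads a library. At that depth its log2 fold change of -1.03 ± 0.63 (SE) gave an adjusted p of 0.261 by edgeR. Serpinf1 lies at chr11:75409769-75422701 on the minus strand (ENSMUSG00000000753).

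**Figure D2:**
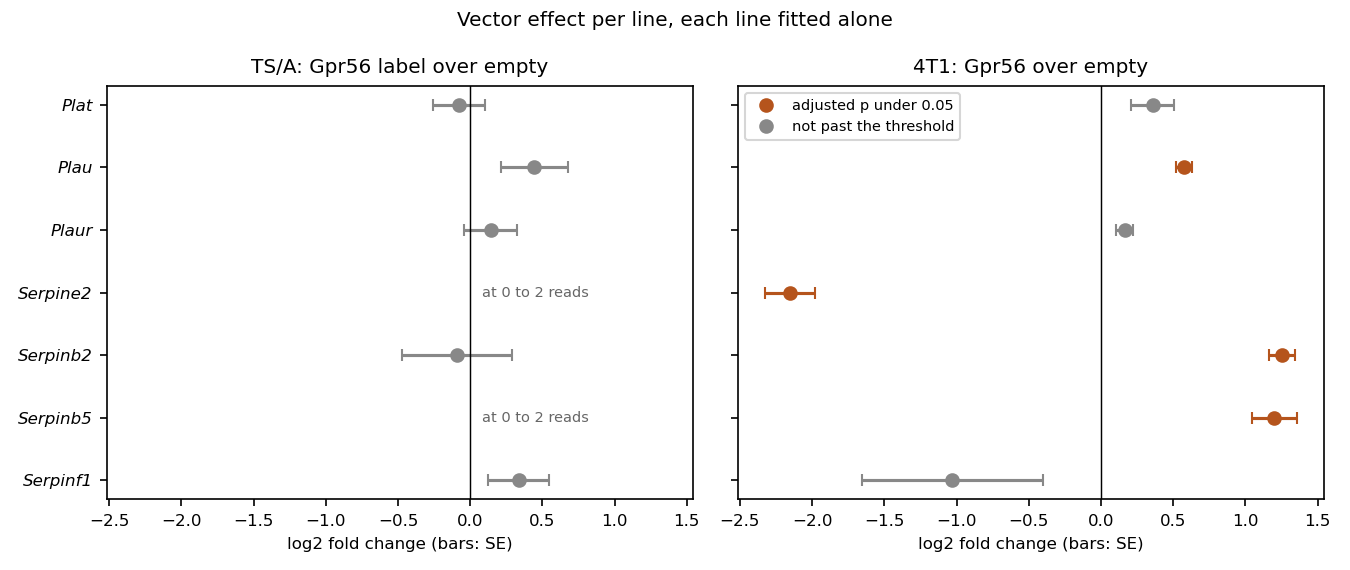
Log2 fold change of Gpr56 over empty libraries (horizontal axis, bars are SE) for each gene, TS/A on the left and 4T1 on the right, each line fitted alone. In 4T1, Plau, Serpinb2 and Serpinb5 lie right of 0 and Serpine2 left of it past the threshold, and no gene is past it in TS/A.

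The promoters of the 3 serpin genes that changed in 4T1 are shown because all lie on chromosome 1 and differ in their elements and direction. Serpinb5 (chr1:106861173-106883348, ENSMUSG00000067006) and Serpinb2 (chr1:107511423-107535478, ENSMUSG00000062345), both on the plus strand, belong to one Serpinb cluster and lie 628075 bases apart. Of the 9 other protein-coding Serpinb genes from Serpinb5 to Serpinb8, 8 had no read in any library and Serpinb8 had 110 reads in all. The 250 bases before the RefSeq start (GRCm38.p6; for Serpinb2 the first of 2 starts) follow, 5′ to 3′ on the strand of the gene, for Serpinb2 (chr1:107511173-107511422, plus), Serpinb5 (chr1:106860925-106861174, plus) and Serpine2 (chr1:79858666-79858915, minus), with capitals on each match to TATAAA (the TATA box), TGANTCA (a pattern that includes the AP-1 element) or GGGCGG (the GC box), searched on both strands.
Serpinb2: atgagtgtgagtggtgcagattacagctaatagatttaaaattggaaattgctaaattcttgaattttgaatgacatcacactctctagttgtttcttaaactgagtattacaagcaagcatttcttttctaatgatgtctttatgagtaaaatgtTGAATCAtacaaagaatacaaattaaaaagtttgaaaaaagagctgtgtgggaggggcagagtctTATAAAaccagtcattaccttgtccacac
Serpinb5: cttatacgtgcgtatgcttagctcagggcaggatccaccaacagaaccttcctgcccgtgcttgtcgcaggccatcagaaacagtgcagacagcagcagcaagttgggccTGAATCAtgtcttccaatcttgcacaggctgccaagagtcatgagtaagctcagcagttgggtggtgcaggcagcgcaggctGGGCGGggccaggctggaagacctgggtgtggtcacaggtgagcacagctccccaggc
Serpine2: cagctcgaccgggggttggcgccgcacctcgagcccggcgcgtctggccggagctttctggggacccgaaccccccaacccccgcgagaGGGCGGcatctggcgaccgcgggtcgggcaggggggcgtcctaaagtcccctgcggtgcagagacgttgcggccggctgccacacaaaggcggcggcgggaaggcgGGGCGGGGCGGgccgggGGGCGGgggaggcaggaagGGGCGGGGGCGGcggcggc
Serpinb2 held TATAAA starting 29 bases before this RNA start and TGAATCA starting 94 bases before it. From its second RefSeq start the same matches lie at -116 and -181. Serpinb5 held TGAATCA 140 bases and GGGCGG 58 bases before its start. Serpine2, the gene that fell, held 6 matches to GGGCGG and none to the others in this window. Over 32851 promoters of the same length, 12.4% held TATAAA, 6.75% held TGANTCA and 32.7% held GGGCGG. Promoter entries matched 5 of the 7 members. Plaur, whose change in 4T1 was not called, held TGACTCA starting 69 bases before its start and 3 matches to GGGCGG. Serpinf1, also not called, held no match to these patterns. Matches are a description of letters and not of binding, and no link between them and the direction of change was tested.

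The deposited reads of Serpinb2 were split between 2 protein-coding transcripts with nearby annotated starts, and almost none went elsewhere. Serpinb2-201 took 15.1% and 35.7% of them in TS/A Gpr56 libraries, 53.4% and 35.6% in TS/A empty, 53.6% and 42.7% in 4T1 Gpr56, and 52.9% and 55.8% in 4T1 empty libraries. These shares crossed between groups in each line, and with 163 to 261 reads of the gene per TS/A library they rest on few reads there. In TS/A 47.6% and 65.8% of Serpinf1 reads in Gpr56 libraries, and 63.5% and 56.8% in empty libraries, were assigned to Serpinf1-201, the remainder mostly to annotated nonsense-mediated decay transcripts.

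The summed RPKM of the 2 activators was 91.0 and 86.1 in 4T1 with the Gpr56 vector, against 58.2 and 59.2 with the empty vector. Within a library Serpinb2 was 0.664 and 0.554 times Plau in 4T1 Gpr56 libraries, against 0.387 and 0.380 times in 4T1 empty libraries. Serpine2 was 0.022 and 0.023 times Plau in 4T1 Gpr56 libraries, against 0.142 and 0.107 times in 4T1 empty libraries. Relative to urokinase, PAI-2 transcripts were thus higher and protease nexin-1 transcripts lower in both Gpr56 libraries. In TS/A the activator sum was 63.5 and 72.5 RPKM with the Gpr56 label and 53.0 and 59.5 with the empty vector, and Serpinb2 was 0.109 and 0.092 times Plau with the Gpr56 label and 0.108 and 0.177 times with the empty vector. These ratios within a library have no test beyond those of the genes in them, and they too depend on how reads were assigned among transcripts.

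**Figure D3:**
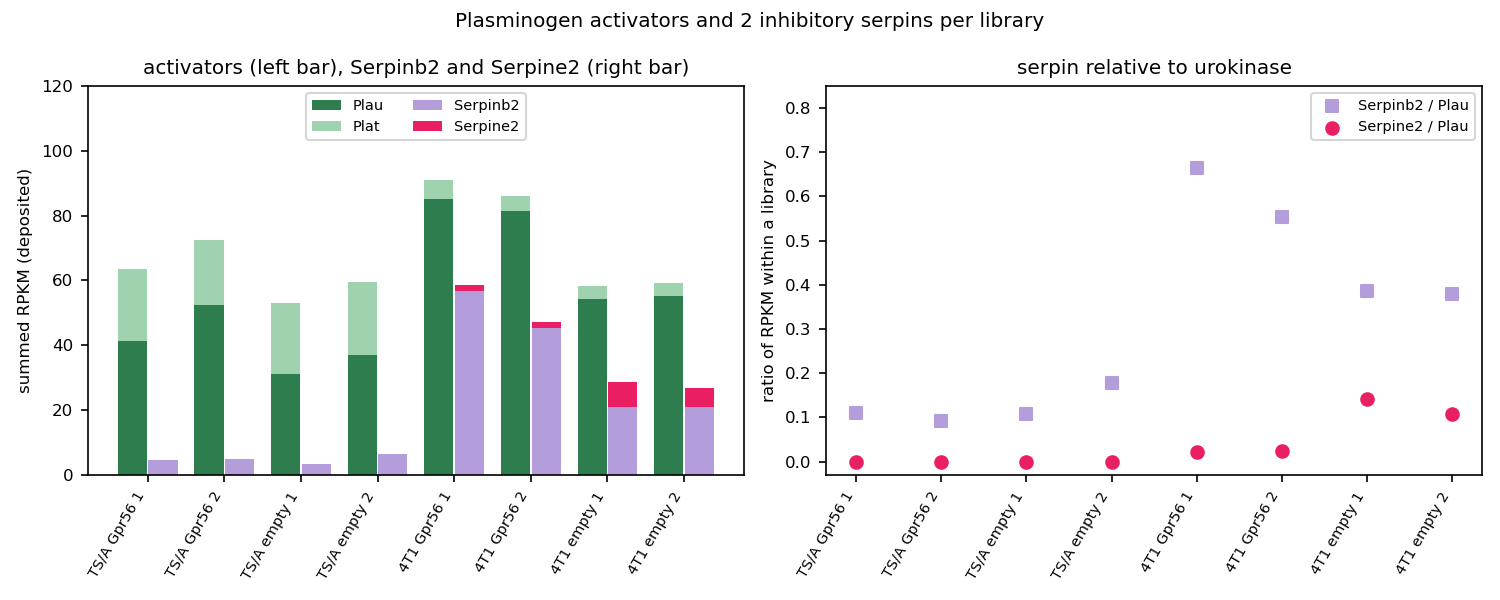
Left, summed deposited RPKM of the activators Plau and Plat and of the serpins Serpinb2 and Serpine2 in each library, as stacked bars from 0; right, ratio of Serpinb2 or Serpine2 to Plau RPKM in each library. Serpinb2 reaches 0.664 and 0.554 times Plau in 4T1 Gpr56 libraries, above the other 6 libraries, and Serpine2 is at 0 in TS/A.

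In TS/A 5 of the 7 members had enough reads to test and 0 passed, as did 0% of all 11276 genes by edgeR (115 genes at an unadjusted p under 0.05, 3 by DESeq2 and 0 by limma-voom after adjustment). The members' median log2 fold change was 0.14, against -0.02 over all genes. Plau had 100.6 and 131 CPM with the Gpr56 label and 73.3 and 96.1 CPM with the empty vector, apart by a narrow gap, with a log2 fold change of 0.44 ± 0.23 (SE) and an adjusted p of 0.9999. Without TS/A empty replicate 2 it passed (log2 fold change 0.68, adjusted p = 0.029), in a fit that called 1140 genes. Serpinf1 had 50.1 and 42.2 CPM with the Gpr56 label and 42.1 and 31.1 CPM with the empty vector, nearly touching, with a log2 fold change of 0.34 ± 0.21 (SE).

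The other TS/A values overlapped between groups. Plat had 58.2 and 53.4 CPM with the Gpr56 label and 55.2 and 62.4 CPM in empty libraries (log2 fold change -0.08 ± 0.18, SE). Plaur had 217 and 182 CPM with the Gpr56 label and 183 and 179 CPM with the empty vector (0.14 ± 0.18, SE). Serpinb2 had 9.33 and 10.2 CPM with the Gpr56 label and 6.68 and 14.1 CPM with the empty vector (-0.09 ± 0.38, SE), where the spread of the empty pair covered both Gpr56 libraries. Serpine2 had 0 reads in all 4 TS/A libraries, which allows up to 3 reads over each group of 2, and Serpinb5 had 2 reads in a single one. Plau and Serpinf1, as 2 of the 7 members, had groups apart in CPM, where 21.7% of all genes tested did.

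The vector effects of both lines were set against each other in the fit of all 8 libraries. None of the 5 members with a value passed the test, beside 0.0668% of all genes (8 of 11970, with 766 at an unadjusted p under 0.05). Serpinb2 had a difference, TS/A minus 4T1, of -1.32 ± 0.41 on the log2 scale (SE; adjusted p = 0.581 by edgeR). It passed without TS/A empty replicate 1 (-1.77, adjusted p = 0.0014) and without TS/A empty replicate 2 (-0.70, adjusted p = 0.037), so the call depended on the TS/A empty libraries included. The difference was 1.37 ± 0.49 for Serpinf1, -0.43 ± 0.22 for Plat, -0.13 ± 0.24 for Plau and -0.02 ± 0.17 for Plaur (log2, SE), none of them past the threshold. Serpine2 and Serpinb5 have no such value because TS/A had 0 to 2 reads of them.

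Plat, Serpinb2, Serpine2, Serpinb5 and Serpinf1 differed strongly between the lines, and Plau and Plaur by less. With the empty vector 2 of the 7 were higher in TS/A than in 4T1 and 4 were lower, beside 47.4% of all genes called (23.9% higher and 23.5% lower), and with the Gpr56 label again 2 were higher and 4 lower, beside 54% of all genes (26.5% higher and 27.4% lower). Among the lower ones, Serpine2 and Serpinb5 had too few TS/A reads to be tested there and entered these fits through 4T1. They could thus only come out lower in TS/A. The contrasts use different libraries but 1 estimate of spread. The 4 libraries of each line were apart for all 7 members, as for 58.9% of all genes. The CPM values of each library are those given above.

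Plat averaged 55.8 ± 3.37 CPM in TS/A Gpr56 and 13.7 ± 2.21 CPM in 4T1 Gpr56 libraries (SD, n = 2), 4.09-fold higher in TS/A, and 58.8 ± 5.11 against 10.8 ± 0.840 CPM with the empty vector, 5.46-fold higher. Adjusted p by edgeR was 2.71e-05 with the Gpr56 label and 1.10e-05 with the empty vector. Plau was lower in TS/A in both contrasts, by 0.83 with the Gpr56 label (adjusted p = 0.0040) and by 0.70 with the empty vector (adjusted p = 0.0098) on the log2 scale. The second call was lost without 4T1 empty replicate 1 (adjusted p = 0.055) or replicate 2 (0.063). The RPKM of Plau was 1.86 and 2.64 times that of Plat in TS/A Gpr56 libraries and 1.43 and 1.66 times in TS/A empty libraries, against more than 13 times in every 4T1 library, so the tissue-type activator had a larger share of activator transcripts in TS/A.

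Plaur differed little, with log2 differences of 0.22 ± 0.12 with the Gpr56 label and 0.25 ± 0.12 with the empty vector (SE; adjusted p = 0.150 and 0.123 by edgeR). The first of these passed without TS/A empty replicate 1 (adjusted p = 0.032) or replicate 2 (0.035). The receptor was thus the member nearest to one level in all 8 libraries, between 151 and 217 CPM.

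Among the serpins, Serpinb2 averaged 9.77 ± 0.613 CPM in TS/A Gpr56 and 105 ± 17.9 CPM in 4T1 Gpr56 libraries (SD, n = 2), 10.8-fold higher in 4T1 (adjusted p = 5.88e-05), and 10.4 ± 5.21 against 44.6 ± 0.0897 CPM with the empty vector, 4.30-fold higher in 4T1 (adjusted p = 7.81e-04). With the empty vector the fitted log2 difference, TS/A minus 4T1, was -2.12, against -1.67 without TS/A empty replicate 1 and -2.74 without TS/A empty replicate 2, and it passed in both. Serpine2 was at least 49.9-fold lower in TS/A than in 4T1 with the Gpr56 label and at least 201-fold lower with the empty vector, with 3 reads over the group as the floor of TS/A. Serpinb5 was at least 316-fold lower in TS/A with the Gpr56 label by the same floor. With the empty vector, where TS/A had 2 reads, Serpinb5 was 182-fold higher in 4T1, with an exact 95% counting interval of 50.0 to 1509. Counting error alone is covered by these bounds.

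Of 12 serpins tested outside the members, 4 were called higher and 4 lower in TS/A with the empty vector, beside 23.9% and 23.5% of all genes. Among the members, Serpinf1 ran opposite to the other serpins. It averaged 46.2 ± 5.56 CPM in TS/A Gpr56 and 0.375 ± 0.133 CPM in 4T1 Gpr56 libraries (SD, n = 2), 123-fold higher in TS/A (adjusted p = 1.15e-06), and 36.6 ± 7.78 against 0.723 ± 0.0918 CPM with the empty vector, 50.6-fold higher (adjusted p = 2.09e-06). TS/A thus had more Plat and Serpinf1, no read of Serpine2 and almost none of Serpinb5. 4T1 had more Serpinb2, Serpinb5 and Serpine2 and almost no Serpinf1, and both lines had reads of Plat and Serpinb2.

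Plg, the gene of plasminogen, which the liver makes, had 0 reads in all 8 libraries.

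Other genes of the system were called in both directions in 4T1. Of 32 such genes, 9 had no read in any library and 17 were tested, of which 1 rose and 5 fell (median log2 fold change -0.11). Over all genes tested in 4T1, 11.5% rose and 11.3% fell. Anxa2, a subunit of a surface receptor for plasminogen and tPA, had 1733 and 1754 CPM with the Gpr56 vector, against 1516 and 1506 CPM with the empty vector, and rose by a log2 fold change of 0.21 (adjusted p = 0.0060 by edgeR; 0.089 and 0.112 without one or other empty library). Lrp1, the endocytic receptor that clears serpin-bound uPA, had 81.5 and 82.4 CPM with the Gpr56 vector, against 133 and 125 CPM with the empty vector, and fell by 0.65 on the log2 scale (adjusted p = 3.48e-06). Its relative Vldlr had 0.328 and 0.375 CPM with the Gpr56 vector, from 7 and 4 reads. It had 1.86 and 2.63 CPM with the empty vector, and fell by 2.69 (adjusted p = 0.0010). Transcripts of both receptors were thus lower in 4T1 fitted alone, and uptake of the complexes was not measured. With all 8 libraries neither was called (adjusted p = 0.48 for Lrp1 and 0.13 for Vldlr by edgeR). Lrpap1, a chaperone of these receptors, fell by 0.30 in counts (adjusted p = 0.028), but its deposited RPKM ran the other way, with a log2 fold change of 0.09 in RPKM.

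Of 51 other serpins in the files, 24 had no read and 9 were tested in 4T1. Of those tested, 3 rose and 0 fell (median 0.32), beside 11.5% of all genes tested higher and 11.3% lower. All 3 were clade B genes like Serpinb2 and Serpinb5. The clade B genes Serpinb6a (log2 fold change 0.05, adjusted p = 0.61 by edgeR) and Serpinb9 (0.13, adjusted p = 0.53) did not pass. Serpinb8, which inhibits furin and lies in the same cluster, had 2.39 and 1.59 CPM with the Gpr56 vector, against 0.506 and 0.376 CPM with the empty vector, a log2 fold change of 2.22 (adjusted p = 0.0032 by edgeR; 0.061 without 4T1 Gpr56 replicate 1). Serpinb6b and Serpinb9b rose by 0.67 (adjusted p = 0.0011 by edgeR) and 0.82 (adjusted p = 0.047 by edgeR, called in 7 of 15 settings). Both have close relatives among neighbouring genes, and whether reads were shared with those was not tested.

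Other pericellular serine proteases, coagulation genes and their inhibitors were tested for 16 of 27 in 4T1, and 13 rose and 1 fell, with a median log2 fold change of 0.61. Over all genes tested there, 11.5% rose and 11.3% fell. Tfpi, the inhibitor of tissue factor and factor Xa, had 8.47 and 8.72 CPM with the Gpr56 vector, against 0.338 and 0.658 CPM with the empty vector, with a log2 fold change of 4.05 (adjusted p = 4.11e-07, and 0.014 with all 8 libraries by edgeR). St14, the matriptase gene, whose product activates pro-uPA, had 266 and 268 CPM with the Gpr56 vector, against 160 and 166 CPM with the empty vector (log2 fold change 0.71, adjusted p = 4.81e-07). In TS/A St14 lay under 0.4 CPM in every library. Klk10, a secreted kallikrein, rose by 1.06 (adjusted p = 1.83e-06), F2rl1, the protease-activated receptor PAR2, by 0.70 (adjusted p = 7.16e-06), and Prss23, a secreted serine protease, fell by 0.57 (adjusted p = 6.50e-05). With all 8 libraries in 1 fit Tfpi alone of these 3 lists was called in 4T1. In TS/A 0 of 17, 0 of 8 and 0 of 13 genes of the same lists passed.

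**Figure D4:**
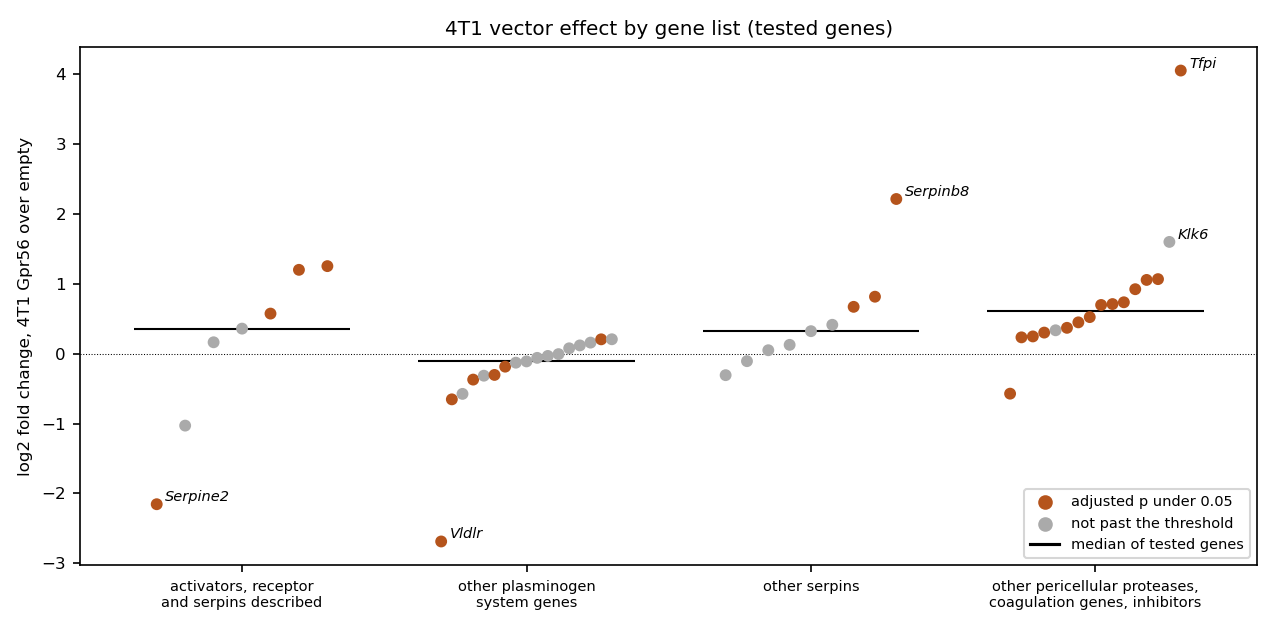
Log2 fold change in 4T1, Gpr56 over empty (vertical axis), of each tested gene in 4 lists, with called genes in orange and a line at the list's median. Medians are 0.36, -0.11, 0.32 and 0.61 from left to right, and Serpine2 and Vldlr lie lowest.

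The most abundant genes of those lists in TS/A, none of which passed, were S100a10 and Anxa2, which pair in the plasminogen receptor, the intracellular Serpinb6a, the collagen chaperone Serpinh1, the secreted protease Htra1 and the protein C receptor Procr. S100a10 had 1502 and 1311 RPKM with the Gpr56 label and 1223 and 1603 RPKM with the empty vector. Serpinb6a had 639 and 700 RPKM with the Gpr56 label and 502 and 762 RPKM with the empty vector. In both the empty pair enclosed the Gpr56 pair, as it did for Serpinb2.

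The genes whose log2 CPM followed a member most closely over the 8 libraries were picked by Pearson's r, which all share the gap between the lines and are a description. They were Pcmtd2, Tmem267 and Grk6 for Plat (r = 0.999 to 0.996), Tkt, Krt19 and Stambpl1 for Plau (0.987 to 0.980), and Arhgap22, Pnpla6 and Vkorc1 for Plaur (0.976 to 0.956). For Serpine2 they were Ly9, Bicd1 and Zfp941 (0.9998 to 0.997), for Serpinb2 Efhd2, Mindy3 and Ltk (0.995 to 0.994), and for Serpinf1 Sumf1, Fgfr1 and Pelo (0.998 to 0.997).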

How the data were processed

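Per the labels' protocols, RNA came from an RNeasy column kit and libraries from the TruSeq RNA v2 kit, which does not mark strand. Each deposited file listed 65042 transcripts with whole-number read counts and RPKM, per the file headers. What aligner, counter, build and annotation the authors used for these counts and RPKM is not given in the sources used here. Groups were set by the vector in the characteristics, and titles gave line and replicate number.

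Read counts were summed by the gene in the name column (22026 genes, 15815 with a read). 65023 transcript identifiers matched GENCODE M21 (GRCm38), the source of coordinates, and 19 did not. RPKM were summed likewise. Depth was 10510569 to 25959142 reads per library. Chi-square per degree of freedom between replicates was 17.4 (TS/A Gpr56), 118 (TS/A empty), 5.39 (4T1 Gpr56) and 3.58 (4T1 empty), so no pair was merged.

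Tests used edgeR 4.0.16 in R 4.3.3: filterByExpr, TMM, glmQLFit and glmQLFTest, with Benjamini-Hochberg adjustment over all genes at 0.05. Vector effects were fitted per line, because the spread differed between lines; the difference of effects and the line contrasts used all 8 libraries. SE is the log2 fold change over the root of F. The edgeR fits were also run on simulated counts drawn with the spread that edgeR estimated. Such a run checks the code and cannot show whether that spread holds for these libraries. Alternatives were other scalings, DESeq2 1.42.0, limma 3.58.1 (voom with sample weights, or log2 of RPKM plus 0.1 or 1), no filter or 10 CPM in 2 libraries, the deepest transcript alone, a replicate block, 1 fit of all 8 libraries and leaving out each library.

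Named genes of other lists were Plg, Adgrg1 and, per list and line, up to 4 past the threshold each way by smallest p, or the 2 most abundant where none passed. Some genes that these rules or lists take are not reported here, or by count alone. Most-like genes were the 3 with the highest r among genes kept in the fit of all 8 libraries, for members averaging at least 1 CPM, with a prior count of 2. Promoters are RefSeq's. The members and lists were chosen with earlier results of these data known.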

Additional observations from a re-analysis of the deposited data

Results flagged for a closer look

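Adgrg1 differed between the lines in its response to the vector label, with a difference (TS/A minus 4T1) of -5.67 on the log2 scale (SE 0.55, adjusted p = 0.020 by edgeR with all 8 libraries). It was higher in 2 of 2 Gpr56 libraries of 4T1, while the TS/A groups overlapped. Without any 1 library other than a TS/A empty one the adjusted p lay between 0.104 and 0.274.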

How the results depend on the processing

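In 4T1 the calls of Plau, Serpinb2 and Serpinb5 held in 15 of 16 settings, all but the fit of all 8 libraries, which called 1 member, and that of Serpine2 in 16 of 16. Against 2588 genes called in 4T1, DESeq2 called 1549, RPKM plus 0.1 1283, RPKM plus 1 1262 and the fit of all 8 libraries 27, and leaving out 1 library gave 1403 to 2748 genes and 4 to 5 members. In TS/A, with 0 called, DESeq2 called 3 genes, no filter 4, the replicate block 26 and the fit of all 8 libraries 1, and leaving out 1 library gave 4 to 1140 genes and 0 to 1 members. For the difference of effects, with 8 called, library totals gave 4, DESeq2 66, voom 2, no filter 60, RPKM plus 0.1 5, RPKM plus 1 27 and the replicate block 37, and leaving out 1 library gave 0 to 2391 genes and 0 to 1 members. Leaving out 1 library gave 3335 to 7853 genes and 5 to 6 members between the lines with the empty vector, and 4237 to 8536 genes and 6 to 7 members with the Gpr56 label. In these fits the lone library of an arm was assumed to vary like the others. The causes were not tested.

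Directions turned in 22 of the values recomputed for single genes (log2 fold changes). In TS/A, Serpinb2 came to 0.040 by voom and 0.279 by the deepest transcript, and S100a10 to 0.0028 with either RPKM pseudocount. In 4T1, Lrpap1 came to 0.094 with RPKM plus 0.1 and 0.088 with RPKM plus 1. The rest turned on leaving out 1 library. In TS/A the range was then -0.166 to 0.039 for Plat, -0.531 to 0.569 for Serpinb2, -0.930 to 0.139 for Adgrg1, -0.267 to 0.291 for S100a10, -0.048 to 0.094 for Anxa2, -0.262 to 0.512 for Serpinb6a, -0.112 to 0.438 for Serpinh1, -0.187 to 0.044 for Htra1 and -0.0042 to 0.622 for Procr, and Serpinb6a, Procr and Adgrg1 passed without empty replicate 2. The difference of effects ran from -0.326 to 0.087 for Plau and -0.156 to 0.099 for Plaur.

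Deviations of same-numbered libraries correlated at 0.313 in TS/A and -0.021 in 4T1. The labels tie a number to no shared culture or day, and 2 numbers are too few to show a pairing from the data, so none was assumed. With the replicate block 4 members were called in 4T1, among 2824 genes, and 0 members in TS/A and in the difference of effects. Serpinf1 had no value in 4T1 with the 10 CPM filter or the deepest transcript. Depth limits Serpinf1 in 4T1 and Serpine2 and Serpinb5 in TS/A.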
